A study of Arabidopsis thaliana with 8 samples.

Results

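The change in the effect of the bdl cross between 3 and 6 days of Arabidopsis embryo development was measured on 8 two-colour long-oligonucleotide arrays. All 8 arrays of the series entered the comparison, 4 of day 3 and 4 of day 6. Each array held RNA of Q0990 x bdl embryos in one colour and RNA of Q0990 x Col-0 embryos in the other. The bdl effect is the log2 ratio of the first cross over the second on an array, and the quantity tested is the day 6 effect minus the day 3 effect for each of 18840 genes. Both crosses had Q0990 as the female, so the Q0990 genome copy was common to all samples, and the crosses differed in the pollen parent, bdl or Col-0. Both stocks are labelled with ecotype Col-0. Days are counted from pollination in the protocols and from fertilization in the series text, which states 4 biological replicates for each day. Q0990 is known as a GAL4 enhancer trap line. The labels do not say whether the bdl stock carries the mutant gene under its own promoter or under GAL4 control, nor how many embryos were pooled, so the cells that made the mutant protein are not given.

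BODENLOS (BDL, IAA12) is an Aux/IAA protein, a repressor that auxin normally marks for degradation. The bdl form is resistant to that degradation and keeps the auxin response factor MONOPTEROS (MP, ARF5) repressed. MP activates genes of the early vascular tissue and of the root pole, and embryos that lack its activity fail to form an embryonic root and often have misplaced or fused cotyledons. Between the days sampled, an Arabidopsis embryo normally passes from the globular stages, when the tissue layers and poles are laid down, to stages with growing cotyledons and the first storage products.

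Median intensities per channel were 336 to 524 on day 3 and 225 to 451 on day 6. Ratios correlated across genes at r = 0.57 to 0.78 between arrays of day 3, 0.73 to 0.87 between arrays of day 6 and -0.12 to 0.10 between arrays of different days. The arrays of a day were therefore alike and those of different days were not, and genes are not independent replicates. The embryo regulator LEC1 gave intensities of 9355 or more in every day 3 channel and 3849 or more in every day 6 channel. Markers of endosperm and seed coat were also present, above all on day 3. In pooled tissue, fewer cells of a type and less RNA per cell cannot be told apart. The number of arrays limits the precision of every value.

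The bdl effect differed between the days for 7792 of 18840 genes (41.4%) at an adjusted p under 0.05. The effect was higher on day 6 for 3682 genes (19.5%) and lower for 4110 (21.8%), while the median difference over all genes was -0.01. Most differences were small: the median size among the called genes was 0.46 on the log2 scale. A difference of at least 2-fold was called for 593 genes (3.15%), 129 higher and 464 lower (251 and 685 with no offset), and one of at least 4-fold for 54, of which 53 were lower. The exception was WOX5, the homeobox gene of the root organizing centre. The 4 day 6 ratios lay all above or all below the 4 day 3 ratios for 8110 genes (43.0%), and 7252 of the called genes were among them.

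**Figure D1:**
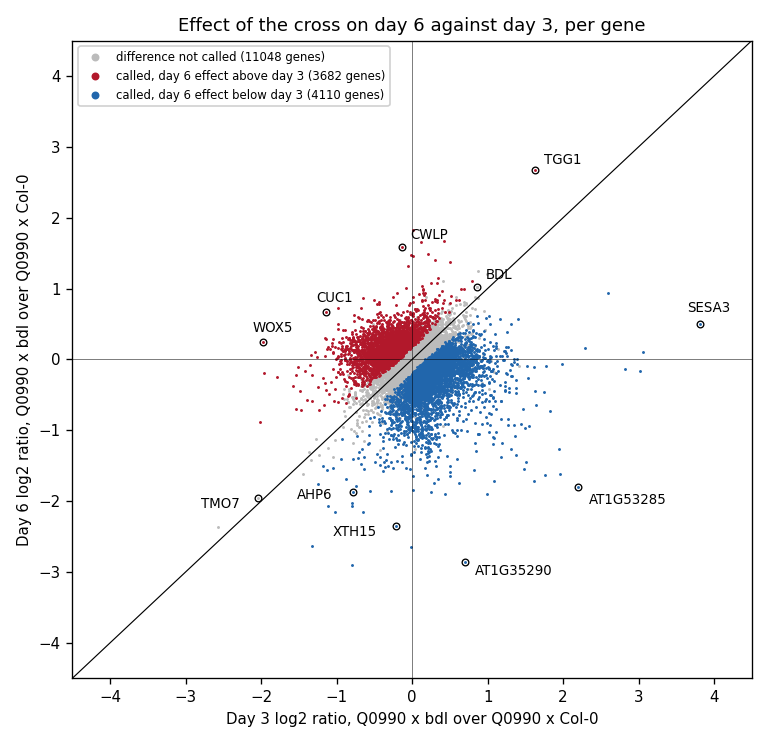
Each point is a gene, placed by its log2 ratio of Q0990 x bdl relative to Q0990 x Col-0 on day 3 (horizontal axis) and day 6 (vertical axis), as fitted over 4 arrays a day. Red and blue points are the 3682 and 4110 genes with a called difference, grey points were not called, and the diagonal line marks equal effects. AT1G53285 and AT1G35290 lie below the horizontal zero line and right of the vertical one, CUC1 and WOX5 lie on the opposite side, and TMO7, AHP6 and BDL kept the same sign on both days.

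The called genes fell into a few patterns. Of the 3682 genes with a higher effect on day 6, 1598 (43.4%) were lower in the bdl cross on day 3 and not called on day 6, 860 (23.4%) were not called on day 3 and higher on day 6, and 820 (22.3%) were lower on day 3 and higher on day 6. Of the 4110 genes with a lower effect, 1480 (36.0%) were higher on day 3 and not called on day 6, 1348 (32.8%) were not called on day 3 and lower on day 6, and 857 (20.9%) were higher on day 3 and lower on day 6. Change of sign was the most frequent pattern among the large differences, with 78 of the 129 genes at least 2-fold higher and 251 of the 464 at least 2-fold lower. This pattern follows in part from choosing genes by the size of the difference, which opposite signs enlarge. For comparison, 3951 genes (21.0%) were called higher and 3990 (21.2%) lower on day 3, and 3060 (16.2%) and 3695 (19.6%) on day 6.

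Levels of each cross by day come from different arrays and are given without a test. Between the days, 22.0% of all genes rose and 7.18% fell at least 2-fold in signal in the Q0990 x Col-0 embryos, against 22.9% and 9.35% in the Q0990 x bdl embryos. The median change in signal over all genes was 0.42 (log2) in either cross, and its source was not tested. Changes of signal with age are given here and below without correction for this shift, which favours rises over falls. Among the 129 genes with an effect at least 2-fold higher on day 6, 100 (77.5%) had a signal at least 2-fold higher on day 6 in the bdl cross and 39 (30.2%) in the control cross. Among the 464 genes with an effect at least 2-fold lower, 224 (48.3%) had a signal at least 2-fold lower in the bdl cross and 97 (20.9%) in the control cross, while 149 (32.1%) had a signal at least 2-fold higher in the control cross and 38 (8.19%) in the bdl cross. These shares follow in part from the choice of genes, because the difference between the crosses' changes is the quantity that selected them.

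The BDL transcript was higher in the bdl cross on every array. Its log2 ratios were 0.74, 0.91, 0.84 and 0.96 on day 3, then 1.14, 0.92, 1.05 and 0.98 on day 6. The groups overlapped, and the difference of 0.16 was not called (SE 0.0792, adjusted p = 0.14, 95% interval -0.0213 to 0.342). With an added term for sets of arrays that deviated together, chosen after seeing the data, the same difference was called (adjusted p = 0.0265). The 3 BDL reporters gave differences of -0.02, 0.09 and 0.41, the last from the dimmest one. MP was lower in the bdl cross on every array, at -0.57, -0.42, -0.71 and -0.21 on day 3, then -0.11, -0.44, -0.37 and -0.33 on day 6. The 2 days overlapped here too, with a difference of 0.16 that was not called (SE 0.123, adjusted p = 0.321, interval -0.119 to 0.445).

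Genes that MP is known to activate, or that act in the early vascular tissue, did not move as a block. Of 14 tested, 7 had a higher effect on day 6, 1 a lower one and 6 were not called (57.1% called, against 41.4% of all genes), and the median difference was 0.26 (0.50 with no offset). On day 3, 10 were lower in the bdl cross and none higher; on day 6, 6 were lower and 1 higher. The median ratio of the 14 was -0.60 to -0.50 across day 3 and -0.29 to 0.03 across day 6, so the days did not overlap.

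Within this group, TMO7, LOG3 and LOG4 were low on both days and had no called difference. TMO7, a small helix-loop-helix protein that moves toward the future root pole, had ratios of -1.65, -2.33, -1.95 and -2.25 on day 3, then -2.40, -1.83, -1.64 and -1.94 on day 6. In the bdl cross it rose above the blanks on 1 of 4 day 3 arrays and on no day 6 array, so the background limits the size of its ratios (difference 0.09, adjusted p = 0.736, interval -0.359 to 0.547). LOG3 and LOG4, enzymes that release active cytokinin, had fitted ratios of -1.34 and -0.92 on day 3, against -1.42 and -0.95 on day 6. Their differences were -0.08 (adjusted p = 0.478, interval -0.277 to 0.114) and -0.03 (adjusted p = 0.881, interval -0.386 to 0.318), and the days overlapped for both genes.

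Other members were low only on day 3. AT5G66940, annotated as a Dof-type zinc finger gene, had ratios of -0.77, -0.71, -0.97 and -0.87 on day 3, then 0.15, 0.19, 0.12 and 0.01 on day 6 (difference 0.95, SE 0.0646, adjusted p = 3.95e-05). DRN, an AP2 domain factor of cotyledon initiation, went from a fitted ratio of -0.69 to 0.08 (difference 0.77, adjusted p = 0.00415), although on day 6 its signal exceeded the blank spots on 1 array in either cross. LHW, the helix-loop-helix partner of TMO5, went from -0.53 to 0.16 (difference 0.70, adjusted p = 2.81e-04), and TMO3 from -0.62 to 0.03 (difference 0.65, adjusted p = 8.73e-04).

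AT1G05577 was low on both days. It had -1.75, -1.88, -2.06 and -2.36 on day 3, then -0.85, -0.93, -0.63 and -1.13 on day 6, a difference of 1.12 (SE 0.139, adjusted p = 5.05e-04) that was 1.84 with no offset. Its bdl signal was above the blank spots on 2 of 4 day 3 arrays, so the background limits the day 3 ratios. T5L1, a close relative of TMO5, moved the other way, from -0.15, -0.24, -0.02 and -0.05 on day 3 to -2.23, -0.68, -0.97 and -0.90 on day 6. All 4 of its day 6 ratios were below those of day 3, with 1 array far lower than the rest (difference -1.08, SE 0.284, adjusted p = 0.0168). TMO5 itself had fitted ratios of -0.08 and 0.15, with a called difference of 0.23 (adjusted p = 0.0406).

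The other Aux/IAA genes were split. Of 20 tested, 3 had a higher and 4 a lower effect on day 6 (35% called, a share under that of all genes), with a median difference of -0.15. IAA3 (SHY2) was higher in the bdl cross on day 3, at 1.14, 0.71, 1.2 and 0.47, and had ratios of -0.06, -0.40, -0.05 and -0.44 on day 6. The days did not overlap and the difference was -1.12 (SE 0.183, adjusted p = 0.00191), but on day 6 no signal of the control cross exceeded the blank spots. IAA7, IAA17 and IAA31 had the same direction, with differences of -0.68, -0.44 and -0.44, and IAA7 too was at the level of the blank spots on day 6 (-0.41 with no filter on dim reporters). IAA30, a member that lacks the domain needed for degradation, had ratios of -1.05, -1.06, -1.25 and -1.27 on day 3, then -0.06, -0.32, -0.50 and -0.43 on day 6 (difference 0.83, SE 0.0744, adjusted p = 1.20e-04). IAA18 and IAA27 also had a higher effect on day 6, by 0.38 and 0.33. IAA19 was low on both days, at fitted ratios of -1.05 and -1.38, and its difference of -0.33 was not called (adjusted p = 0.15).

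Among 13 auxin response factors other than MP, 4 had a higher and 2 a lower effect on day 6. In all, 46.2% were called, against 41.4% of all genes, and every called difference was under 0.70 in size. ARF18, ARF4, ARF6 and ARF1 differed by 0.68, 0.53, 0.39 and 0.34. ARF16 and ARF17, which silencing by a microRNA restricts, differed by -0.51 and -0.53: ARF16 was at 0.36, 0.49, 0.51 and 0.41 on day 3, then -0.14, -0.08, -0.03 and -0.01 on day 6. Every day 3 ratio of ARF16 was above 0 and every day 6 ratio below.

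Auxin transport and synthesis genes changed in both directions, 8 higher and 6 lower of 23 tested. The list had 60.9% called, against 41.4% of all genes, with transport and synthesis genes on both sides. Among those higher on day 6 were the influx carriers LAX2 (difference 1.40, adjusted p = 8.26e-04), AUX1 (0.56) and LAX1 (0.28), the kinase PID that directs PIN proteins (0.75), its partner NPY1 (0.88) and the synthesis enzymes TAA1 (0.92) and YUC4 (1.31). YUC4, a flavin monooxygenase that makes auxin, had -0.72, -0.71, -0.75 and -0.88 on day 3, then 0.55, 0.60, 0.39 and 0.63 on day 6 (SE 0.0747, adjusted p = 1.91e-05). YUC4 was low on every day 3 array and high on every day 6 array.

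Lower on day 6 were YUC3 (difference -1.08), TAR1 (-0.93), YUC10 (-0.80), PIN3 (-0.59), LAX3 (-0.57) and ABCB1 (-0.25). YUC3, of the same enzyme family as YUC4, had ratios of -0.28, -0.44, -0.41 and -0.35 on day 3, then -1.82, -1.38, -1.37 and -1.23 on day 6 (SE 0.119, adjusted p = 2.99e-04). YUC4 and YUC3 thus moved in opposite directions from ratios below 0 on day 3. TAR1 and YUC10 exceeded the blank spots on 1 array of either cross on day 6. The efflux carriers PIN2, PIN4, PIN6 and PIN7 had differences of 0.13, 0.24, 0.29 and 0.04, none of them called.

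In cytokinin signalling, 2 of 12 tested genes had a higher and 3 a lower effect on day 6 (41.7% called, near the share of all genes). AHP6, a pseudo-phosphotransfer protein that inhibits cytokinin signalling next to the forming vessels, was lower in the bdl cross on both days, at -0.78, -0.80, -0.76 and -0.76 on day 3, then -1.92, -1.99, -1.75 and -1.83 on day 6. The 4 ratios of a day lay close together, and the effect on day 6 was lower than that of day 3 by a difference of -1.1 (SE 0.0642, adjusted p = 2.07e-05). In signal, AHP6 went from 12.70 ± 0.432 to 11.04 ± 0.0663 (log2, SD, n = 4) in the control cross and from 11.92 ± 0.418 to 9.17 ± 0.136 in the bdl cross. The A-type response regulators, which cytokinin induces and which damp its signal, were split, with ARR5 (-0.70) and ARR15 (-0.47) lower and ARR16 (0.63) and ARR3 (0.45) higher on day 6.

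Of 9 root pole genes tested, 3 had a higher and 2 a lower effect on day 6 (55.6% called, against 41.4% of all genes). WOX5 had ratios of -1.79, -2.16, -2.07 and -1.88 on day 3, then 0.44, 0.24, 0.02 and 0.31 on day 6. The days did not overlap, and the difference of 2.23 (SE 0.114, adjusted p = 1.35e-05) was the largest positive value of all tested genes. The day 6 side is weak, because WOX5 exceeded the blank spots on 1 of 4 arrays in either cross then. Its control signal was 9.30 ± 0.503 on day 3 and 7.05 ± 0.582 on day 6, whereas the bdl signal was 7.32 ± 0.589 and 7.30 ± 0.748. SCR, which specifies the ground tissue and the stem cell niche, had ratios of -0.93, -0.94, -1.15 and -0.78 on day 3, then -0.03, -0.26, -0.07 and -0.17 on day 6, a difference of 0.82 with signal on every array (SE 0.0963, adjusted p = 4.14e-04).

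PLT1, an AP2 factor of root identity, ran against WOX5 and SCR. Its ratios were -1.15, 0.09, -1.0 and -1.10 on day 3, then -2.51, -1.90, -1.71 and -1.99 on day 6, lower on every day 6 array (difference -1.24, SE 0.296, adjusted p = 0.0112). Day 3 replicate 2 stood apart from the other 3 arrays of that day, and on day 6 the bdl signal was above the blanks on 1 of 4 arrays. With no offset the difference was -2.01. FEZ, which promotes root cap stem cell divisions, was called at -0.64 on weak signals (-1.03 with no offset). PLT2 and SHR were low on both days, with fitted ratios of -0.65 and -0.79 on day 3, against -0.51 and -0.64 on day 6, and their differences of 0.14 and 0.15 were not called.

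The cotyledon boundary genes had some of the largest increases of the effect. Of 9 genes of the boundary and shoot meristem, 5 had a higher and 1 a lower effect on day 6 (66.7% called, against 41.4%), with a median difference of 0.25. CUC1, a NAC factor that keeps the cotyledons separate and helps to start the shoot meristem, was at -0.80, -1.36, -0.87 and -1.51 on day 3 and at 0.61, 0.66, 0.72 and 0.67 on day 6. Every array of day 3 was below 0 and every array of day 6 above, and the difference was 1.80 (SE 0.162, adjusted p = 1.24e-04). The signal of CUC1 was 11.41 ± 0.527 and 10.83 ± 0.17 in the control cross and 10.27 ± 0.212 and 11.50 ± 0.16 in the bdl cross, so the bdl cross was below the control on day 3 and above it on day 6.

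CUC3 and CUC2, which act with CUC1, moved the same way but were faint on day 6. CUC3 was at -1.10, -1.07, -1.38 and -0.99 on day 3, then 0.44, 0.27, 0.04 and 0.38 on day 6 (difference 1.42, SE 0.111, adjusted p = 6.77e-05). CUC2 went from a fitted ratio of -0.71 to 0.01 (difference 0.72, adjusted p = 7.23e-04). Either gene was brighter than the blanks on 1 or 2 of 4 arrays of a cross on day 6. STM, the homeobox gene of the shoot meristem, was detected throughout and had ratios of -0.28, -0.30, -0.47 and -0.45 on day 3, then 0.17, 0.17, 0.15 and 0.23 on day 6 (difference 0.56, SE 0.0677, adjusted p = 4.73e-04). Another homeobox gene of the same class, KNAT2, had the opposite course, from -0.84, -0.76, -1.0 and -0.92 to -2.15, -1.57, -1.29 and -1.73 (difference -0.80, SE 0.168, adjusted p = 0.00608). WUS was not called, with a fitted ratio of 0.05 on day 3 and -0.29 on day 6, and neither was CLV3.

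**Figure D2:**
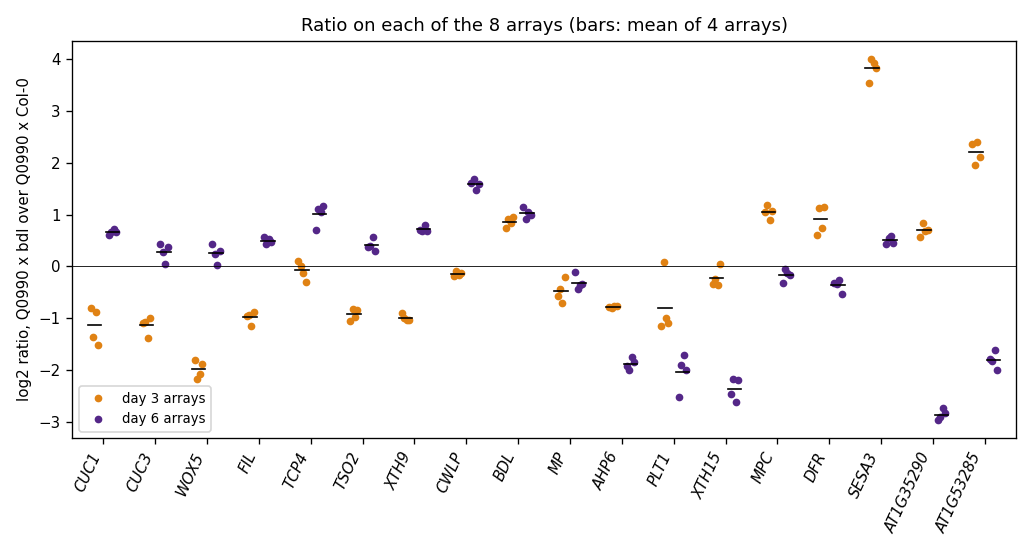
The log2 ratio of Q0990 x bdl relative to Q0990 x Col-0 is plotted for 18 genes on each of the 4 day 3 arrays (orange) and 4 day 6 arrays (purple), with a bar at the mean of 4. CUC1, FIL, TSO2 and XTH9 lie below 0 on day 3 and above 0 on day 6, AT1G35290 and AT1G53285 cross in the other direction, and BDL and MP overlap between the days.

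Genes of cotyledon polarity and growth formed the list with the highest share of called members. Of 17 tested, 15 had a higher effect on day 6 and none a lower one (88.2% called, against 41.4%), and the median difference was 0.65. On day 3, 10 were lower and 1 higher in the bdl cross; on day 6, 12 were higher and 1 lower. The median of the 17 was between -0.37 and -0.12 across day 3 and between 0.29 and 0.44 across day 6. All 17 were detected on both days. In the control cross itself, 11 of the 17 had a signal at least 2-fold higher on day 6, against 22.0% of all genes. The median change of the 17 in that cross was 1.34, against 0.42 over all genes.

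FIL, a YABBY factor of the lower side of lateral organs, had ratios of -0.96, -0.94, -1.14 and -0.87 on day 3, then 0.56, 0.44, 0.53 and 0.46 on day 6 (difference 1.47, SE 0.0778, adjusted p = 1.55e-05). Its signal was 8.69 ± 0.148 and 12.40 ± 0.445 in the bdl cross, and 9.67 ± 0.241 and 11.90 ± 0.403 in the control cross, so it rose with age in both and by more in the bdl cross. The related YAB5 differed by 0.85, and KAN2, another gene of the lower side, by 1.04, although KAN2 was above the blank spots on 1 control array on day 6. Genes of the upper side also had a higher effect on day 6: PHB was at -1.08, -0.37, -1.13 and -1.04 on day 3, then 0.15, 0.02, 0.10 and -0.04 on day 6 (difference 0.97, SE 0.152, adjusted p = 0.00157), and PHV, CNA and REV differed by 0.65, 0.50 and 0.41. On day 6 itself PHB was not called, while FIL was above 0 on every array.

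The growth regulators of the list differed in where they started. GRF5, a growth-regulating factor that promotes cell proliferation in leaves, was low on day 3, at -1.36, -1.54, -1.31 and -1.44, and at 0.00, -0.34, -0.13 and -0.20 on day 6 (difference 1.24, SE 0.0922, adjusted p = 5.45e-05). TCP4, which limits proliferation in leaf margins, was near 0 on day 3, at 0.10, 0.01, -0.12 and -0.30, and at 0.69, 1.11, 1.05 and 1.16 on day 6 (difference 1.08, SE 0.13, adjusted p = 4.54e-04). TCP3 and TCP2 took the course of TCP4, with differences of 0.79 and 0.64, and the 3 TCP4 reporters differed by 0.88, 0.95 and 1.41. ANT, an AP2 factor of organ growth, differed by 0.84. The members with no call were PRS and TCP10, at -0.05 and -0.04.

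Cell cycle and DNA replication genes were low in the bdl cross on day 3 and close to the control on day 6. Of 43 tested, 27 had a higher effect on day 6 and 1 a lower one (65.1% called, against 41.4%), with a median difference of 0.43. On day 3, 32 were lower and 1 higher, and on day 6, 10 were higher and 4 lower. The median of the 43 was -0.41 to -0.35 across day 3 and 0.04 to 0.14 across day 6.

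The difference covered several phases of the cycle. TSO2, a ribonucleotide reductase subunit that supplies DNA precursors, was at -1.04, -0.81, -0.97 and -0.85 on day 3, then 0.38, 0.39, 0.57 and 0.30 on day 6 (difference 1.33, SE 0.0872, adjusted p = 3.30e-05). The replication licensing subunits MCM3, MCM6, MCM4, MCM7 and MCM2 differed by 0.85, 0.75, 0.47, 0.47 and 0.43. The D-type cyclin CYCD3;1, which drives entry into the cycle, was at -0.57, -0.69, -0.62 and -0.56 on day 3, then 0.38, 0.31, 0.26 and 0.20 on day 6 (difference 0.90, SE 0.0685, adjusted p = 6.09e-05). Among mitotic genes, CYCA1;1 differed by 1.02, the kinase gene AUR1 by 1.1, MAP65-3, which bundles microtubules during cytokinesis, by 0.95, and KNOLLE, the syntaxin of the cell plate, by 0.84. CYCA2;1 was the member with a lower effect, at -0.48, on signals that exceeded the blank spots on 1 array of either cross on day 6. The main cell cycle kinase CDKA;1 was not called, with fitted ratios of 0.20 and 0.05.

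Of 20 epidermis and cuticle genes, 9 had a higher and 3 a lower effect on day 6 (60.0% called, against 41.4% of all genes). The median difference was 0.16 (0.25 with no offset). The regulator of epidermal identity ATML1 was near 0 on all 8 arrays, between -0.04 and 0.12, and was not called. PDF1, an extracellular protein of the epidermis, was at -1.01, -0.91, -0.64 and -0.78 on day 3, then 0.45, 0.19, 0.28 and 0.26 on day 6 (difference 1.13, SE 0.0948, adjusted p = 9.17e-05). The wax enzyme CER6 differed by 1.08, with 1.00, 1.01 and 1.22 in its 3 reporters, and FDH, another enzyme of long-chain lipids, by 0.68. LTP1, a lipid transfer protein, ran the other way, from 0.17, -0.24, 0.27 and -0.14 to -1.14, -0.94, -1.08 and -0.89 (difference -1.03, SE 0.126, adjusted p = 4.90e-04). Its day 3 intensities lay between 58277 and 73377, with 4 of 16 signals over the ceiling of a 16-bit scan, where a difference between the crosses can be compressed. CER1 and HDG2 were the other members with a lower effect, at -0.94 and -0.58, and CER1 on day 6 was above the blank spots on 1 bdl array and no control array.

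Of 6 stomatal lineage and myrosin cell genes tested, 3 had a higher effect on day 6 and none a lower one, against 41.4% of all genes called in either direction. TGG1, the myrosinase of guard cells and myrosin cells, was higher in the bdl cross on both days, at 1.37, 1.64, 1.69 and 1.82 on day 3, then 2.94, 2.64, 2.73 and 2.35 on day 6 (difference 1.04, SE 0.145, adjusted p = 9.14e-04). The day 6 ratios were all above those of day 3, but the control signal of TGG1 exceeded the blank spots on 2 of 4 arrays on day 6. The background therefore limits the size of its day 6 ratios. TMM, a receptor that spaces stomata, was near 0 on day 3, at 0.03 to 0.22, and at 1.01, 0.88, 0.79 and 1.02 on day 6 (difference 0.83, SE 0.0819, adjusted p = 1.87e-04). Its co-receptor ERL1 differed by 0.66. The commitment genes SPCH, MUTE and FAMA were not tested.

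Seed maturation regulators had 6 members with a higher effect on day 6 and none with a lower one among 11 tested. The share called was 54.5%, against 41.4% of all genes, and the median difference was 0.24. ABI3, a B3 factor of late embryo gene expression, was at -1.13, -1.06, -0.98 and -1.01 on day 3, then 0.17, 0.05, 0.19 and -0.04 on day 6 (difference 1.14, SE 0.077, adjusted p = 3.85e-05). FUS3, of the same family, was at -0.49 to -0.55 on day 3 and 0.26 to 0.30 on day 6, with no overlap (difference 0.81, SE 0.0574, adjusted p = 4.56e-05). L1L, ABI4, LEC1 and BZIP53 differed by 0.63, 0.53, 0.30 and 0.24, and LEC2, WRI1 and ABI5 were not called.

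Storage protein and oil body genes gave no common direction, with 3 higher and 3 lower among 12 tested, against 19.5% higher and 21.8% lower of all genes. SESA3, a 2S albumin gene, was at 3.53, 4.00, 3.92 and 3.81 on day 3, then 0.43, 0.55, 0.59 and 0.44 on day 6. It had the highest day 3 ratio of the named genes and stayed above 0, and the difference was -3.31 (SE 0.107, adjusted p = 1.87e-06). In signal it rose from 7.97 ± 0.216 to 13.16 ± 0.284 in the control cross and from 11.79 ± 0.0253 to 13.66 ± 0.346 in the bdl cross. SESA2 had the same direction, from 2.12, 3.04, 2.67 and 2.56 to 1.1, 0.81, 0.85 and 0.99 (difference -1.67, SE 0.181, adjusted p = 2.88e-04), while SESA4 was at fitted ratios of 0.86 and 1.02 with no called difference. The albumin genes are near-identical neighbours, so reporters may share signal between them. The 12S globulin gene CRA1 had the opposite course, at 0.91, -0.10, 0.01 and -0.34 on day 3, then 1.78, 1.70, 1.37 and 1.79 on day 6 (difference 1.54, SE 0.221, adjusted p = 0.00102), and the oleosin gene OLEO1 differed by 0.83.

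Fatty acid synthesis and oil assembly genes had 11 of 20 members with a higher effect on day 6 and none with a lower one. Of these 20 genes, 55.0% were called, against 41.4% of all genes, with a median difference of 0.39. Their median was between -0.19 and 0.00 across day 3 and between 0.31 and 0.39 across day 6. The members with the largest differences feed carbon into the plastid pathway and extend the chain: BCCP2, a subunit of acetyl-CoA carboxylase, differed by 0.84, the plastid pyruvate kinase PKP2 by 0.82, LPD1 of the pyruvate dehydrogenase complex by 0.76 (not called with no offset), and the condensing enzymes KAS1 and KAS2 by 0.75 and 0.74. BCCP2 was at -0.43, 0.15, -0.55 and -0.45 on day 3, then 0.57, 0.49, 0.60 and 0.44 on day 6 (SE 0.137, adjusted p = 0.00182). Its day 3 replicate 2 was above 0 and the other 3 below. The triacylglycerol enzymes DGAT1 and PDAT1 were not called, at -0.24 and -0.12.

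Photosynthesis genes were called at close to the share of all genes, 21 of 47 (44.7%, against 41.4%), 5 higher and 16 lower on day 6, with a median difference of -0.21. They were mostly higher in the bdl cross on both days, 39 of 47 on day 3 and 28 on day 6. The photosystem I subunit gene PSAO was at 0.94, 0.76, 0.92 and 0.66 on day 3, then -0.13, -0.31, -0.17 and 0.10 on day 6 (difference -0.95, SE 0.107, adjusted p = 3.45e-04). LHCB2.1, RBCS2B and PSAE1 differed by -1.24, -0.86 and -0.80, and PETE2, PSBW, LHCB4.1, LHCB2.2 and ATPC1 by 0.29 to 0.50. The light-harvesting and small RuBisCO subunit genes have near-identical copies that a reporter may not separate. Several members were among the brightest on the arrays. LHCB1.3 had 8 of 16 signals over the ceiling of a 16-bit scan, where ratios may be compressed. PSAO had day 6 signals (log2) of 15.84 ± 0.149 in the bdl cross and 15.97 ± 0.0575 in the control cross, and PSAE1 had 15.80 and 15.87. These lie near that ceiling, so the day 6 ratios of both genes may be compressed.

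Expansins and xyloglucan enzymes, which loosen and rebuild the cell wall, held large differences in both directions, 7 higher and 8 lower of 24 tested. In this list 62.5% were called, against 41.4% of all genes. The median of -0.08 turned to 0.36 where all 16 signals had to exceed the blank spots. XTH9 was at -0.89, -0.99, -1.04 and -1.02 on day 3, then 0.71, 0.69, 0.80 and 0.69 on day 6 (difference 1.71, SE 0.0672, adjusted p = 4.48e-06). XTH15 was at -0.33, -0.24, -0.35 and 0.05 on day 3, then -2.45, -2.18, -2.61 and -2.18 on day 6 (difference -2.14, SE 0.134, adjusted p = 2.75e-05). The control signal of XTH15 was 7.50 ± 0.226 on day 3 and 9.57 ± 0.46 on day 6, and the bdl signal 7.28 ± 0.284 and 7.21 ± 0.453, with 1 of 4 bdl arrays above the blank spots on day 6. XTH16 differed by 1.14 and XTH30 by -0.95, and the expansins EXPA8, EXPA1 and EXPA15 by -0.78, -0.71 and -0.47.

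In the gibberellin list, GA3OX2, an enzyme of the last activating step, had a higher effect on day 6 (0.47), and GA3OX4 and KO a lower one (-0.48 and -0.40), so that 3 of 7 tested were called (42.9%, near the share of all genes). Among 8 phloem, xylem and procambium genes, ACL5, which makes thermospermine and restrains xylem differentiation, was at -0.13, -0.22, -0.33 and -0.33 on day 3, then -0.38, -1.12, -1.0 and -1.36 on day 6 (difference -0.71, SE 0.162, adjusted p = 0.00896). CVP2, a phosphatase of vein formation, differed by 0.60. The other 6, among them WOX4, APL and BRX, were not called, so 2 of 8 were called, a share under the 41.4% of all genes, and 3 of the 8 were detected on neither day.

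**Figure D3:**
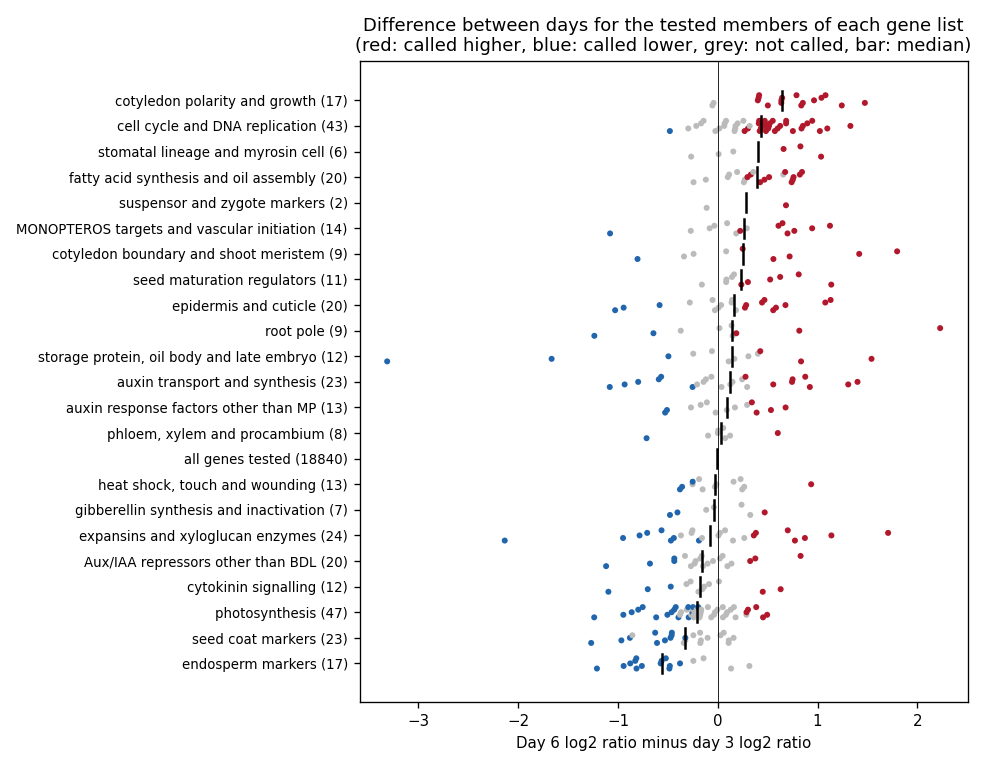
The horizontal axis is the day 6 log2 ratio minus the day 3 log2 ratio, and each point is a tested member of a gene list, with the number tested in brackets. Red points were called higher, blue points called lower and grey points not called, and the black bar is the list's median, with the median of all 18840 tested genes (-0.01) drawn as a bar alone. The cotyledon polarity list has the highest median (0.65) and the endosperm list the lowest (-0.56).

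The largest differences of all were negative. AT1G53285, annotated only as expressed, was at 2.35, 1.96, 2.39 and 2.11 on day 3, then -1.78, -1.82, -1.61 and -1.98 on day 6. It was high in the bdl cross on every day 3 array and low on every day 6 array, a 16.0-fold change of the ratio (difference -4.0, SE 0.122, adjusted p = 1.52e-06). Its control signal rose from 10.47 ± 0.27 to 14.69 ± 0.794, whereas its bdl signal was 12.67 ± 0.424 and 12.89 ± 0.672. The samples of the bdl cross therefore had more of this transcript than the control samples on day 3, and less on day 6.

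Others shared that course. AT1G43667, annotated as a lipid transfer and seed storage family member, was at 1.61, 2.18, 1.82 and 2.23 on day 3, then -1.48, -1.76, -1.45 and -1.78 on day 6 (difference -3.58, SE 0.156, adjusted p = 6.82e-06). AT1G35290, of the thioesterase family, was at 0.57, 0.83, 0.69 and 0.70 on day 3, then -2.96, -2.90, -2.73 and -2.83 on day 6 (difference -3.55, SE 0.0805, adjusted p = 6.22e-07). AT5G05030, similar to a carboxyl-terminal proteinase, was at 1.33, 2.09, 1.34 and 2.30 on day 3, then -1.50, -1.93, -1.32 and -1.77 on day 6 (difference -3.39, SE 0.246, adjusted p = 5.04e-05). Their control signals were higher on day 6 than on day 3 by 3.05, 3.26 and 3.48, and their bdl signals differed between the days by -0.53, -0.29 and 0.09.

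AT1G21395 and AT3G13370 reached opposite signs by another course, since their bdl signals differed between the days by -2.69 and -4.46. AT1G21395 was at 1.46, 1.72, 1.60 and 1.68 on day 3, then -1.69, -1.72, -1.66 and -1.79 on day 6 (difference -3.33, SE 0.0779, adjusted p = 6.22e-07), and AT3G13370 at 1.41 to 1.58 and -1.71 to -1.41 (difference -3.03, adjusted p = 1.18e-06). AT1G52695, a phospholipase and carboxylesterase family gene, also had opposite signs, with 1.85 to 2.08 on day 3 and -1.38 to -1.13 on day 6 (difference -3.21). AT1G62000 and AT1G62080 resembled SESA3 in their course: AT1G62000 was at 2.70, 3.24, 3.22 and 2.90 on day 3, then -0.02, -0.26, -0.09 and -0.28 on day 6 (difference -3.18, SE 0.137, adjusted p = 6.82e-06). Its signal was higher on day 6 by 6.05 in the control cross and by 2.87 in the bdl cross, but its day 6 intensities reached 61469, close to the ceiling of a 16-bit scan, where differences can be compressed. AT1G62080 differed by -2.96, with intensities up to 4877.

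**Figure D4:**
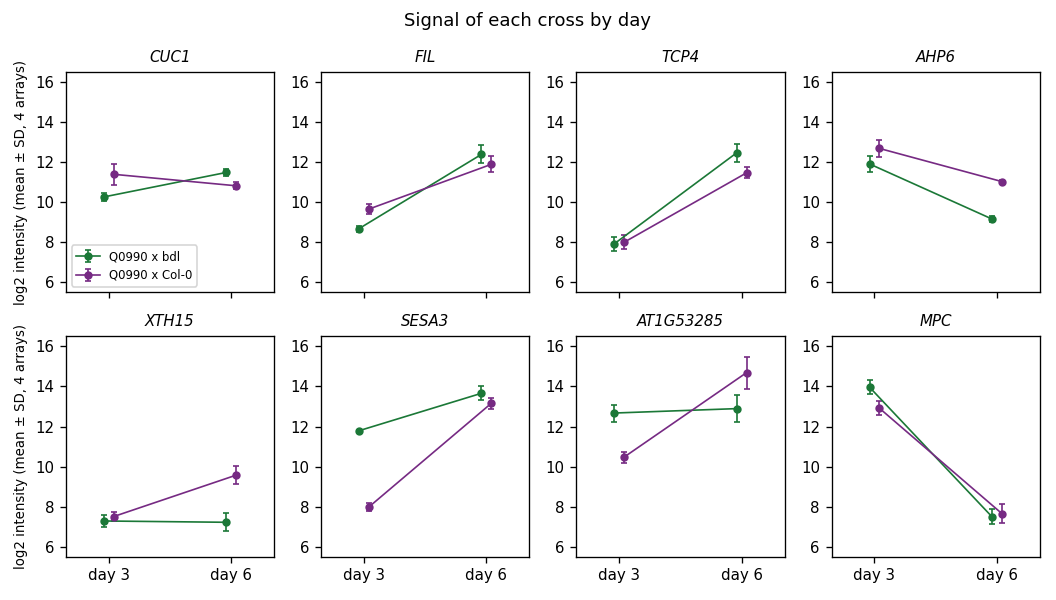
The log2 signal of 8 genes in Q0990 x bdl (green) and Q0990 x Col-0 (purple) embryos is plotted on day 3 and day 6, as the mean of 4 arrays with the SD. The lines of CUC1, FIL and AT1G53285 cross between the days, that of XTH15 rises in the control cross alone, and MPC drops in both crosses from a level that was higher in Q0990 x bdl on day 3.

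The largest positive differences outside the lists were smaller. CWLP, a proline-rich cell wall protein gene, was at -0.18, -0.09, -0.16 and -0.12 on day 3, then 1.60, 1.68, 1.47 and 1.58 on day 6 (difference 1.72, SE 0.0665, adjusted p = 4.36e-06). It was near 0 on day 3 and among the highest ratios of the named genes on day 6. OFP16, of the OVATE family, was at -0.77, -0.52, -0.81 and -0.47 on day 3, then 0.97, 0.36, 1.27 and 0.89 on day 6 (difference 1.52, SE 0.171, adjusted p = 3.38e-04). AT2G34700, annotated in the pollen Ole e 1 and extensin family, was at -1.22 to -1.05 on day 3 and 0.24 to 0.36 on day 6 (difference 1.46). AT1G29270 and AT5G47440, of unknown function, were low on day 3 and not called on day 6, with differences of 1.77 and 1.41. AT1G22330, an RNA recognition motif gene, had scattered ratios of 0.26, -1.45, 0.35 and 0.81 on day 3, then 2.07, 0.84, 1.84 and 1.17 on day 6, and its difference of 1.49 (SE 0.445, adjusted p = 0.0279) was not called with no offset added, nor without day 3 replicate 3, day 6 replicate 1 or day 6 replicate 3.

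Genes detected on a single day can have a ratio near 0 on the other day for lack of signal. Detection here means a signal above the 95th percentile of blank spots on at least 3 of 4 arrays in at least 1 cross. Among genes detected on both days, 6659 of 15151 were called (7792 of 18840 over all genes), with 111 at least 2-fold higher and 366 lower. Among those detected on day 3 only, 966 of 2524 were called, with 13 and 94, and among those detected on day 6 only, 71 of 373, with 5 and 1. Genes detected on neither day numbered 792, with 96 called, 0 at least 2-fold higher and 3 lower. Most large differences were of genes detected on both days, a class that held 15151 of the 18840 tested genes.

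Of the genes detected on day 3 only, the F-box gene AT1G12170, the 14-3-3 gene GRF13, DOF4.5 and MEE56 were high in the bdl cross on day 3 and below 0 on day 6 on every array. DOF4.5, a Dof-type zinc finger gene, was at 1.39, 1.85, 1.62 and 1.71 on day 3, then -0.58, -0.77, -0.36 and -0.88 on day 6 (difference -2.29, SE 0.139, adjusted p = 2.31e-05). AT1G62210 was at 2.70 to 2.95 on day 3 and at the level of the blank spots on day 6 (difference -2.95), and ZW9 was at -2.09 to -1.51 on day 3 and likewise undetected in both crosses on day 6 (difference 1.54). On the other side, PER1, a peroxiredoxin of seeds, and AT4G22450, of unknown function (difference 1.83), were detected on day 6 only. PER1 was at 0.07, -0.07, -0.28 and 0.33 on day 3, then 1.85, 1.29, 1.48 and 1.21 on day 6 (difference 1.44, SE 0.171, adjusted p = 4.18e-04).

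Endosperm markers moved together with the genes that were high in the bdl cross on day 3. Of 17 tested, 13 had a lower effect on day 6 and none a higher one (76.5% called, against 41.4%), and the median difference was -0.56. On day 3, 16 of the 17 were higher in the bdl cross; on day 6, 5 were higher and 1 lower. Their median was 0.51 to 0.66 across day 3 and -0.08 to 0.03 across day 6, and their summed signal gave log2 ratios of 0.62 to 0.79 and 0.03 to 0.11. MPC, expressed from the maternal copy in endosperm, was at 1.04, 1.18, 0.90 and 1.08 on day 3, then -0.32, -0.04, -0.13 and -0.17 on day 6 (difference -1.21, SE 0.0887, adjusted p = 5.28e-05). Its signal was 13.96 ± 0.359 in the bdl cross and 12.92 ± 0.345 in the control cross on day 3, and 7.49 ± 0.368 and 7.65 ± 0.462 on day 6. On day 6, MPC was above the blank spots on 2 of 4 arrays in either cross, so its day 6 ratios are near background. AGL36, MEA and AGL62 differed by -0.94, -0.88 and -0.83, and MEA on day 6 was above the blank spots on 2 arrays in the bdl cross and 1 in the control cross. AGL36 was above the blank spots on all 4 arrays of either cross on day 3 and on none on day 6.

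Seed coat markers had the same direction, with 10 of 23 lower on day 6 and none higher (43.5% called, near the share of all genes) and a median difference of -0.32. On day 3, 16 were higher in the bdl cross and none lower; on day 6, 4 were higher and 4 lower. Their summed signal gave log2 ratios of 0.43 to 0.74 across day 3 and 0.09 to 0.24 across day 6. DFR, an enzyme of tannin and anthocyanin synthesis, was at 0.61, 1.13, 0.73 and 1.15 on day 3, then -0.32, -0.34, -0.26 and -0.52 on day 6 (difference -1.27, SE 0.139, adjusted p = 2.99e-04). STK, a MADS factor of the ovule and seed coat, differed by -0.97, and BAN, the tannin enzyme specific to the inner seed coat, by -0.61. BAN was not absent from either cross, with intensities of 16332 to 53907 on day 3 and 1268 to 2504 on day 6.

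These marker levels therefore moved with the difference between days, in the direction of the 4110 genes with a lower effect on day 6 and against the cell cycle, cotyledon and maturation lists. Their part in those results was not tested. Of the 2 suspensor markers tested, WOX8 had a higher effect on day 6, at 0.68. Its day 6 signal exceeded the blank spots on 3 bdl arrays and 1 control array. Among 13 heat shock, touch and wounding genes, 1 was higher and 3 lower (30.8% called, a share under the 41.4% of all genes). Their median of -0.03 turned to 0.02 where all 16 signals had to exceed the blank spots. WRKY40 was the higher one, at 0.94 (1.63 with no offset), with no day 6 signal above the blanks, while TCH4, HSP70 and HSP101 differed by -0.38, -0.36 and -0.25.

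**Figure D5:**
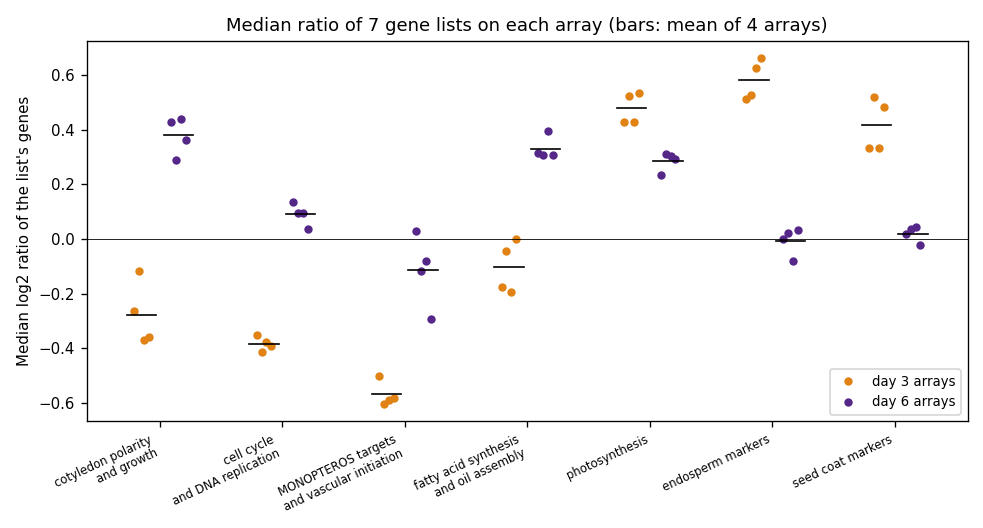
The median log2 ratio of Q0990 x bdl relative to Q0990 x Col-0 over the tested members of 7 gene lists is shown on each day 3 array (orange) and day 6 array (purple), with a bar at the mean of 4. The cotyledon, cell cycle, MONOPTEROS target and fatty acid lists lie higher on day 6 than on day 3, the photosynthesis, endosperm and seed coat lists lie lower, and no list shown overlaps between the days.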

How the data were processed

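The deposited tables give, for every spot of an array, an intensity in each channel, without background or flags. Image software, background method and normalization are not given in the sources used here. Some intensities exceeded the ceiling of a 16-bit scan, so the deposited values had been rescaled and their point of saturation is not known. The deposited series table of log2 ratios held the same ratios and served as an alternative. Intensities plus an offset of 50 gave log2 ratios, which were normalized by loess (span 0.3, 4 iterations, control spots at weight 0) and reporters were kept if above the 95th percentile of blank spots in at least 4 of 16 signals (22012 of 27462). Reporters of a gene were averaged. limma 3.58.1 (R 4.3.3, statmod 1.5.0) fitted a day 3, a day 6 and a dye effect to 8 arrays (lmFit, eBayes). Two-sided p-values were adjusted by the Benjamini-Hochberg method across 18840 genes and called under 0.05. Signals of single crosses are limma's Aquantile-normalized log2 intensities. In simulated data, 67, 67 and 66 of 18840 genes were given differences of 0.5, 1 and 2 (log2), with independent noise on each array. Of these, 58.2%, 89.6% and 98.5% were recovered, with 7 false calls. The real data had far more called genes and correlated deviations between arrays, so these values give no error rate for the 7792 calls.

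The comparison and the gene lists were chosen with earlier results of these data known. Named genes were taken by rule. Among called genes whose days did not overlap, these were the 10 largest differences of each sign detected on both days. The 5 largest of each sign detected on a single day came from the same genes. With no condition on overlap, the 5 largest of each sign detected on both days and called with opposite signs were added. Up to 4 called members of each list were also taken without that condition, and BDL and MP in any case. Other list members are named to account for the list and were chosen after their values were seen. Gene symbols and, where a symbol was lacking, codes follow the TAIR10.1 gene table and the files. Replicate numbers did not pair the arrays. A member of the auxin transport and synthesis list is counted there but not reported here.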

Additional observations from a re-analysis of the deposited data

Results flagged for a closer look

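The difference between days was called for 7792 genes by its own test. Among the named genes with opposite signs on the days, the day 6 effect exceeded the day 3 effect by 1.80 for CUC1, 1.72 for CWLP, 1.71 for XTH9, 1.52 for OFP16 and 1.47 for FIL. The largest of the other sign were AT1G53285 (-4.0), AT1G43667 (-3.58), AT1G35290 (-3.55), AT5G05030 (-3.39) and AT1G21395 (-3.33).

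Single arrays lay far from the other 3 of their day in 9 of 256 groups examined, where chance alone gives about 1 in 20. The ratio of PLT1 on day 3 replicate 2 was 0.0888, against -1.15 to -1.0 on the others. IAA31 on day 6 replicate 1 was at -0.29, against -0.03 to 0.00. CYCA1;1 (0.10, against 0.24 to 0.27) and LHCB2.1 (-0.61, against -0.86 to -0.82) stood out on day 6 replicate 3, and AGL36 on day 3 replicate 3 (0.72, against 0.96 to 1.0). Of list medians, day 6 replicate 3 stood out for auxin response factors (-0.028, against -0.08 to -0.07), for phloem, xylem and procambium genes (0.0718, against -0.08 to -0.06) and for fatty acid synthesis (0.39, against 0.31 to 0.32), and day 3 replicate 1 for auxin transport and synthesis (-0.28, against -0.37 to -0.36).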

How the results depend on the processing

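The count of 7792 called genes ranged from 5142 to 9700 over the alternatives run. Only the filter that required a signal above the blank spots in all 16 signals moved it by over 1.5 times, to 5142 of 9654 tested (53.3%), with 2536 lower; fewer genes were tested. Leaving out 1 array at a time gave 6228 to 7486 called genes, 2855 to 3536 higher and 3373 to 3950 lower. With the replicate block, 6444 genes were called (2955 higher, 3489 lower). The block is not used above because replicate numbers are shared between the days only as numbers. Deviations of same-numbered arrays correlated at -0.26 to -0.15. Differences of at least 2-fold numbered 593, but 936 (251 higher, 685 lower) with no offset, 361 where all 16 signals had to exceed the blank spots, and 1041 (292 and 749) of 21848 entries of the deposited table of log2 ratios, which match ratios formed without an offset. Of 1854 tests of named genes under the alternatives, 1845 kept their direction and side of the threshold and none changed sign. All named genes but BDL and MP had been picked as called in the same 8 arrays, so this is no independent support. Where all 16 signals had to exceed the blank spots, only 52 of the 106 named genes could be tested. Calls were lost for AT1G22330 (4 alternatives, adjusted p 0.0535 to 0.1), IAA31 without day 3 replicate 1 or day 6 replicate 1 (0.0527 and 0.0563), HSP101 without day 6 replicate 3 (0.0577) and LPD1 with no offset (0.0738). Arrays of a day deviated in pairs that do not match the labelled dyes, day 3 replicates 1 and 3 with day 6 replicates 2 and 4 against the rest. A term for these pairs, chosen after seeing the data, gave 9700 calls and called BDL (adjusted p = 0.0265). The median of the MONOPTEROS target list ran from 0.23 to 0.50. The median difference changed sign in 4 of 18 alternatives for phloem, xylem and procambium and in 1 each for expansins and for heat shock, and in none for the other lists. Over the same alternatives, 5 to 14 endosperm markers and 12 to 24 photosynthesis genes had a lower effect, and 12 to 15 cotyledon polarity and 21 to 29 cell cycle genes a higher one. Genes near the blank spots, whose 95th percentile reached 366 on day 6, have ratios limited by background. That value, for the control channel of replicate 4, exceeded the channel's median intensity of 320. On day 6 the control cutoff was above the bdl cutoff on replicates 2, 3 and 4 (208 against 81, 131 against 75, 366 against 256). It was below it on replicate 1 (68 against 80). Counts of arrays above the blank spots were therefore not equally strict for the crosses.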
